A study of Mus musculus with 2 samples.

Results

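The 36 genes described here serve S phase, the part of the cell cycle in which DNA is copied. They come from a fixed list that was chosen with earlier results of these data known. They were taken by name from the 24014 gene symbols of both libraries together and fall into 8 roles. They are the licensing genes Cdc6, Cdt1 and Mcm2 to Mcm7, the helicase activation genes Mcm10, Cdc45, Gins1 and Gins2, and the polymerase and primase genes Pola1, Prim1, Pole and Pold1. The clamp, clamp loader and single-strand binding genes are Pcna, Rfc2, Rfc4 and Rpa2, and those of Okazaki fragment processing and strand repair are Fen1, Lig1, Exo1, Rnaseh2a and Ung. Nucleotide supply is covered by Tyms, Rrm1, Rrm2 and Dut, and fork protection and licensing control by Tipin, Clspn and Dtl. Chaf1a, Chaf1b, Uhrf1 and Slbp serve chromatin and histone supply. The samples were 2 bone marrow suspensions from wild-type males of the strain labelled C57B/6, called young in the protocol. One group ate normal chow (ND) and the other a diet with 60% fat (HFD), both for 16 weeks, and there was 1 single-cell RNA library per diet, made with the BD Rhapsody system, which captures RNA of the whole transcriptome. The labels give neither the number of animals per library nor a sort or gate.

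DNA replication is prepared in G1, when Cdc6 and Cdt1 load the ring of Mcm2 to Mcm7 onto origins. In S phase Cdc45 and the GINS complex turn that ring into an active helicase, polymerases copy both strands while bound to the PCNA clamp, and Okazaki fragments are trimmed and joined. Most of these genes are transcribed together at the end of G1, under the E2F family of transcription factors. In the marrow, progenitors of red cells, granulocytes and B cells divide often, and their mature descendants leave the cycle.

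With 1 library per diet, no test of the diet was possible and no p-value is given. UMIs, which count captured RNA molecules, were summed over the cells of a class and scaled to all RNA UMIs of that class, as CPM. The log2 ratio of HFD over ND carries an exact 95% interval for counting error alone. It does not cover the spread between animals, nor that some cells hold many UMIs of a gene. The size rule, by which a gene is called higher or lower, asks for a ratio of at least 1.5-fold with an interval that leaves out 0, and describes these libraries only. A gene needed 20 UMIs over both libraries in a class to be counted. The deposited tables held 16817 (ND) and 17282 (HFD) cells with 117999042 and 117773643 RNA UMIs, and 329 cell indices occurred in both. After the filters 13890 and 15214 cells remained, with median depths of 4480 and 4076 UMIs and median mitochondrial shares of 7.08% and 6.21%. Clusters were named by marker genes, with the 36 genes and all gene lists used here left out of the clustering, and 18 marker-named classes had enough cells in both libraries. They include erythroid-like, neutrophil progenitor-like and pro- and pre-B cell-like cells, the blood-forming classes a marrow sample should hold.

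Promoter sequence is shown first because the genes share a regulator. Of the 36 genes, 29 had an entry in the RefSeq promoter table of build GRCm38.p6, and the 250 bases before the start site were searched on both strands for the E2F words TTTGGCGC, TTTCCCGC, TTTGCCGC and TTTCGCGC. A word was found in 7 of the 29 genes (24.1%), against 583 of all 27025 genes in the table (2.16%). The 8 windows below hold every match, 5′ to 3′ in the direction of the gene, with the E2F words in capitals. They lie at chr11:98907997-98908036 on the plus strand (Cdc6), chr8:75109340-75109383 on the plus strand (Mcm5), chr1:128359788-128359831 and chr1:128359729-128359768 on the minus strand (Mcm6, far and near window), chr5:138172025-138172064 on the minus strand (Mcm7), chrX:93632270-93632309 on the minus strand (Pola1), chr1:191575545-191575568 on the minus strand (Dtl) and chr17:56304112-56304151 on the plus strand (Uhrf1).
Cdc6: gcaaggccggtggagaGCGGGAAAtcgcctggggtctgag
Mcm5: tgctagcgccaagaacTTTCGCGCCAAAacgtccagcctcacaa
Mcm6 far: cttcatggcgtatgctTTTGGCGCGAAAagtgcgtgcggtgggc
Mcm6 near: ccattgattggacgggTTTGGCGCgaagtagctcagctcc
Mcm7: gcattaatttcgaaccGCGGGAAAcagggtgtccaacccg
Pola1: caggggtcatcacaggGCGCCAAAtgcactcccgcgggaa
Dtl: gaaagcgtgacgtcagTTTGGCGC
Uhrf1: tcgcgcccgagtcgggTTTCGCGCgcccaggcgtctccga
The capitals of Mcm5 and of the far Mcm6 window each hold 2 words that overlap, 1 on each strand. Of these 7 genes, 4 are licensing genes (Cdc6, Mcm5, Mcm6 and Mcm7).

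The same words were in 10 of 44 other replication genes (22.7%) and in 6 of 19 E2F, cyclin and CDK inhibitor genes (31.6%). They were in 1 of 27 G2 and M phase genes (3.70%) and in none of 14 genes of replication stress and the p53 response. The CHR word TTTGAA, known from promoters of genes of G2 and M, was in 3 of the 29 S phase genes (10.3%), in 10 of 27 G2 and M genes (37.0%) and in 18.3% of all genes. A match is a string of letters, not a site shown to bind, and the absence of a match says only that these letters are not in this window.

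By summed level, erythroid-like and pro- and pre-B cell-like cells carried the most S phase RNA and mature neutrophil-like cells the least, in both libraries. Deep cells weigh more in these sums. Summed over the 36 genes, erythroid-like cells stood at 7133 CPM (ND) and 6917 CPM (HFD), and pro- and pre-B cell-like cells at 6900 and 6930 CPM. Next came neutrophil progenitor-like cells (4739 and 4964 CPM), megakaryocyte-like cells (4582 and 4255 CPM) and HSPC-like cells (stem and progenitor cells, 4338 and 4731 CPM). The first 2 classes change places between the libraries, and so do megakaryocyte-like and HSPC-like cells, so neither pair has a fixed order. Conventional (3640 and 3904 CPM) and plasmacytoid dendritic cell-like cells (3331 and 3746 CPM) and basophil or mast cell-like cells (3028 and 3004 CPM) held the middle. B cell-like (2792 and 2536 CPM), monocyte-like (2726 and 2468 CPM) and eosinophil-like cells (2510 and 2751 CPM) followed. At the low end were T cell-like (1270 and 1300 CPM), macrophage-like (680 and 734 CPM), plasma cell-like (639 and 559 CPM) and mature neutrophil-like cells (350 and 358 CPM).

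**Figure D1:**
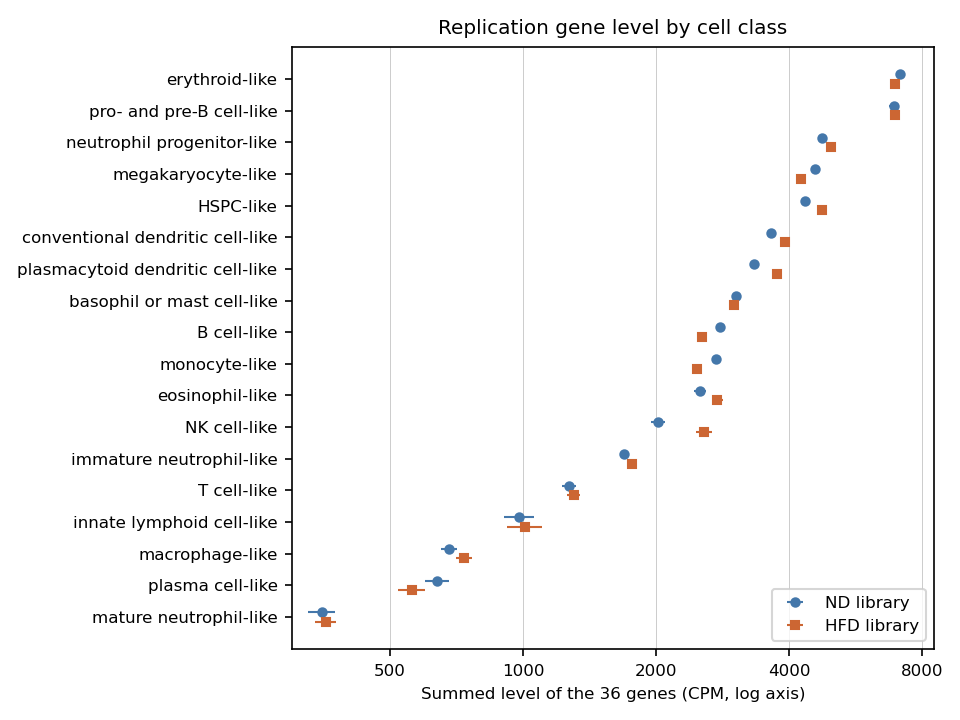
Summed level of the 36 S phase and DNA replication genes in each marker-named class, in CPM of the class on a log axis, with 1 point per library (ND and HFD) and exact 95% Poisson intervals, which cover counting error only. Erythroid-like cells stand at 7133 (ND) and 6917 CPM (HFD), pro- and pre-B cell-like cells at 6900 and 6930 CPM, and mature neutrophil-like cells at 350 and 358 CPM.

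Most single genes were highest in one of the first 2 classes. In the ND library 19 of the 36 genes were highest in erythroid-like cells and 13 in pro- and pre-B cell-like cells, and in the HFD library 20 and 14. Pcna, the sliding clamp, stood at 563 and 552 CPM in erythroid-like and at 683 and 726 CPM in pro- and pre-B cell-like cells. Uhrf1, which reads hemimethylated DNA behind the fork, stood at 266 and 246 CPM in erythroid-like and at 602 and 620 CPM in pro- and pre-B cell-like cells. Rrm1, the large subunit of ribonucleotide reductase, stood at 427 and 396 CPM in erythroid-like and at 155 and 179 CPM in HSPC-like cells. Slbp, which binds histone mRNA, stood at 178 and 149 CPM in erythroid-like and at 81.8 and 85.0 CPM in HSPC-like cells.

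Rfc2, a subunit of the clamp loader, did not follow that order. It was highest in basophil or mast cell-like cells, at 543 CPM in both libraries. In mature neutrophil-like cells, where most of the other genes were near 0, it stood at 138 and 174 CPM, on 306 and 637 UMIs, and made up 39.3% and 48.6% of all S phase UMIs of the class. In erythroid-like cells its share was 3.43% and 3.52%. Rfc4, another subunit of the same loader, had 2 and 1 UMIs in mature neutrophil-like cells. Over the 18 classes, the log2 level of Rfc2 correlated with that of the other 35 genes at r = 0.71 (ND) and 0.67 (HFD), the lowest of the 36, as a description over classes that share a library.

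**Figure D2:**
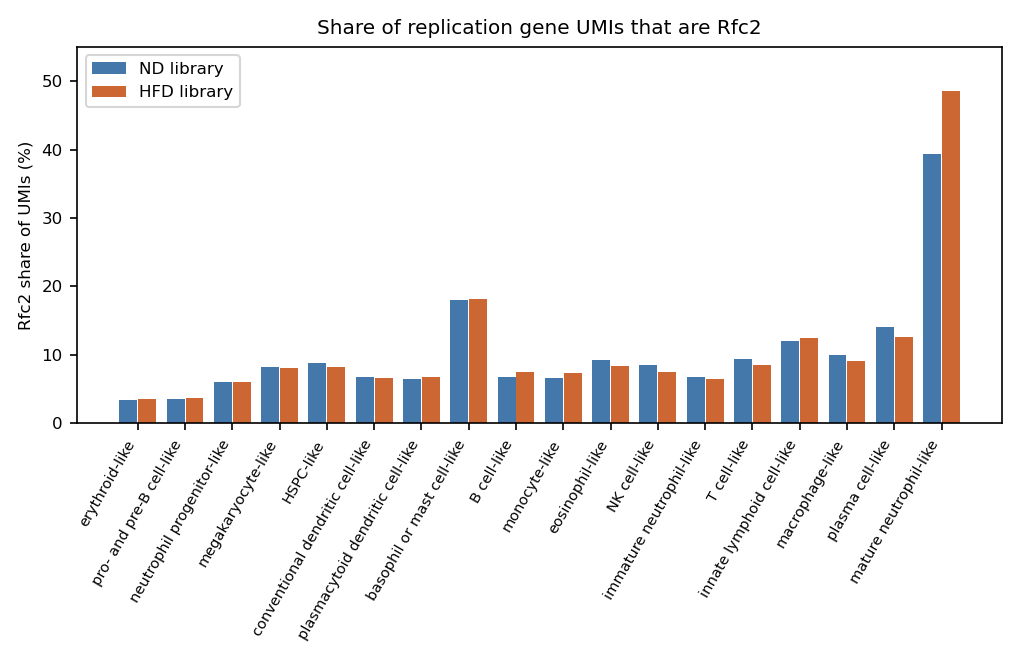
Share of Rfc2 in the summed UMIs of the 36 genes, in percent, for each class and library. The share is 39.3% (ND) and 48.6% (HFD) in mature neutrophil-like cells, and 3.43% and 3.52% in erythroid-like cells.

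The size of the gap between erythroid-like and mature neutrophil-like cells depended on whether Rfc2 was counted. With Rfc2, the summed level of erythroid-like cells was 20.4-fold (ND) and 19.3-fold (HFD) that of mature neutrophil-like cells, and without it 32.4-fold and 36.3-fold. In the GENCODE M21 annotation, Rfc2 overlaps Lat2, an adaptor gene of immune receptors on the opposite strand, and the sources used here do not state whether the counting used strand. Lat2 stood at 659 and 671 CPM in basophil or mast cell-like cells, where Rfc2 was highest. It stood at 13.5 and 11.2 CPM in mature neutrophil-like cells, below Rfc2. In erythroid-like cells, where Rfc2 stood at 245 and 243 CPM, Lat2 stood at 2.42 and 3.18 CPM. Altogether 10 of the 36 genes overlap another protein-coding gene: Cdt1, Mcm7, Cdc45, Gins2, Rfc2, Rfc4, Fen1, Lig1, Rnaseh2a and Chaf1a.

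Along the neutrophil lineage the S phase genes stayed high through 2 clusters and dropped at the next one. The clusters were picked after their top genes were seen and were formed without the S phase genes. In the cluster led by the primary granule genes Elane and Prtn3, the summed level was 4292 (ND) and 4562 CPM (HFD). In the cluster led by Fcnb and Chil3 it was 3374 and 3531 CPM, and in the cluster led by the secondary granule genes Ltf and Ly6g it was 356 and 245 CPM. At the last step the sum was 9.47-fold lower in the ND library (8.86 to 10.1) and 14.4-fold lower in the HFD library (13.4 to 15.5). There 35 and 36 of 36 genes were lower by the 1.5-fold rule, against 34.4% and 36.8% of all genes. At the step before it, 18 and 19 of the 36 were lower, against a background of 44.1% and 44.7%, a share close to that of all genes. At the same earlier step 2 and 1 genes were higher, against 14.3% of all genes in each library.

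Single genes left the pattern early or late. Ung, which cuts uracil out of DNA, had the widest first step: it stood at 74.2, 4.4 and 4.1 CPM along the 3 ND clusters and at 65.1, 5.1 and 1.5 CPM along the HFD ones. Its first step was -4.07 (-4.95 to -3.32) and -3.68 on the log2 scale. Rrm2, the small subunit of ribonucleotide reductase and the one that limits its activity, peaked in the middle cluster, at 195, 392 and 9.0 CPM (ND) and 261, 400 and 9.1 CPM (HFD). Slbp ran at 79.6, 118 and 28.6 CPM (ND) and at 77.6, 114 and 27.7 CPM (HFD). Clspn, a mediator of the fork checkpoint, ran at 55.5, 96.2 and 1.5 CPM in the ND library. In the HFD library it ran at 63.0, 87.0 and 1.8 CPM. The order within the list was thus alike in both libraries: Ung low before the sum dropped, and Rrm2, Slbp and Clspn at their highest just before it.

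**Figure D3:**
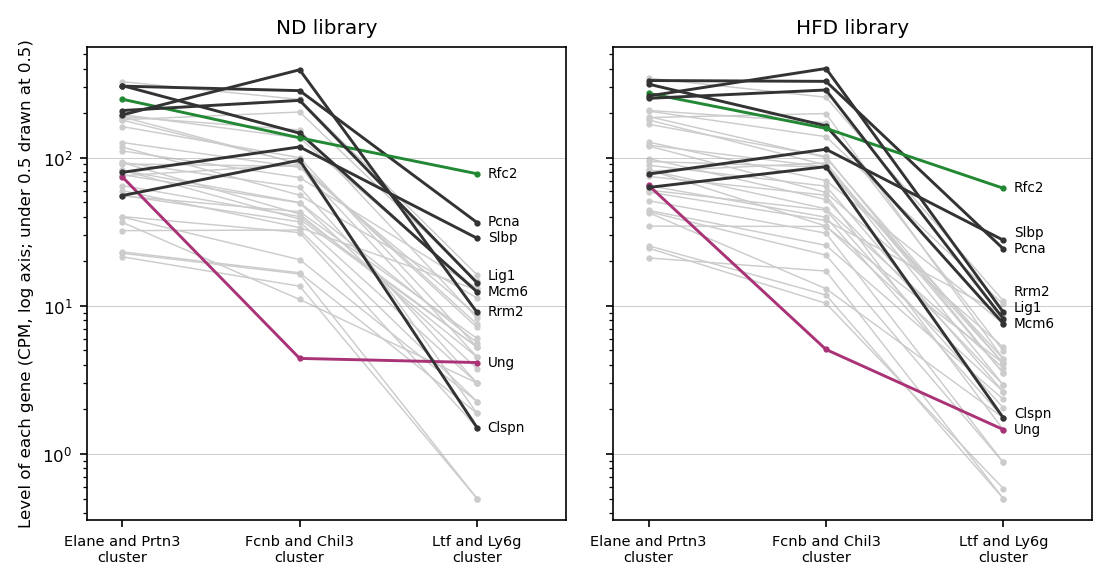
Level of each of the 36 genes, in CPM on a log axis with values under 0.5 drawn at 0.5, along the 3 neutrophil clusters led by Elane and Prtn3, by Fcnb and Chil3, and by Ltf and Ly6g, with 1 panel per library and named genes in dark or coloured lines. Ung is at 4.4 (ND) and 5.1 CPM (HFD) in the middle cluster, where Rrm2 is at 392 and 400 CPM, and Rfc2 is the highest in the last cluster, at 77.9 and 62.2 CPM.

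Monocyte-like and basophil-like cells also held a cluster with a high and one with a low level. From the cluster marked by Ccr2 and Fn1, genes of classical monocytes, to that marked by Ace and Nr4a1, genes of patrolling monocytes, the sum went from 3319 to 655 CPM (ND) and from 3298 to 736 CPM (HFD). There 35 of 36 genes were lower in each library, against 22.2% and 24.4% of all genes. The exception was Rnaseh2a, the catalytic subunit of RNase H2, at -0.35 and -0.54. From the basophil cluster with Mcpt8 and Prss34 to that with Ccl3 and Ccl4 the sum went from 4012 to 1051 CPM (ND) and from 3928 to 1108 CPM (HFD), with 35 of 36 genes lower against 30.1% and 28.4% of all genes. Here the exception was Rfc2, at 515 and 600 CPM in the ND and 498 and 636 CPM in the HFD library.

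Cell by cell, S phase RNA was found in most neutrophil progenitor-like cells and was spread less evenly over HSPC-like cells. Each cell was thinned to 1000 UMIs, leaving out shallower cells (54 ND and 16 HFD erythroid-like cells, and at most 1 per library in the HSPC-like and neutrophil progenitor-like classes). Cells with at least 3 UMIs of the 36 genes were then 81.9% and 80.03% of erythroid-like, 76.4% and 78.0% of neutrophil progenitor-like, and 53.05% and 57.3% of HSPC-like cells. They were 45.7% and 47.8% of pro- and pre-B cell-like cells, although that class had a summed level like the erythroid one. In mature neutrophil-like cells, which do not divide, the share was 0.812% (0.327 to 1.67) and 1.4% (0.869 to 2.13), which is read as background. Without thinning the share in HSPC-like cells was 97.2% and 97.8%, at median depths of 8501 and 8697 UMIs. At matched depth, the variance of S phase UMIs over their mean was 1.81 and 1.82 in neutrophil progenitor-like cells, 3.17 and 3.05 in HSPC-like cells and 5.63 and 5.34 in pro- and pre-B cell-like cells.

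**Figure D4:**
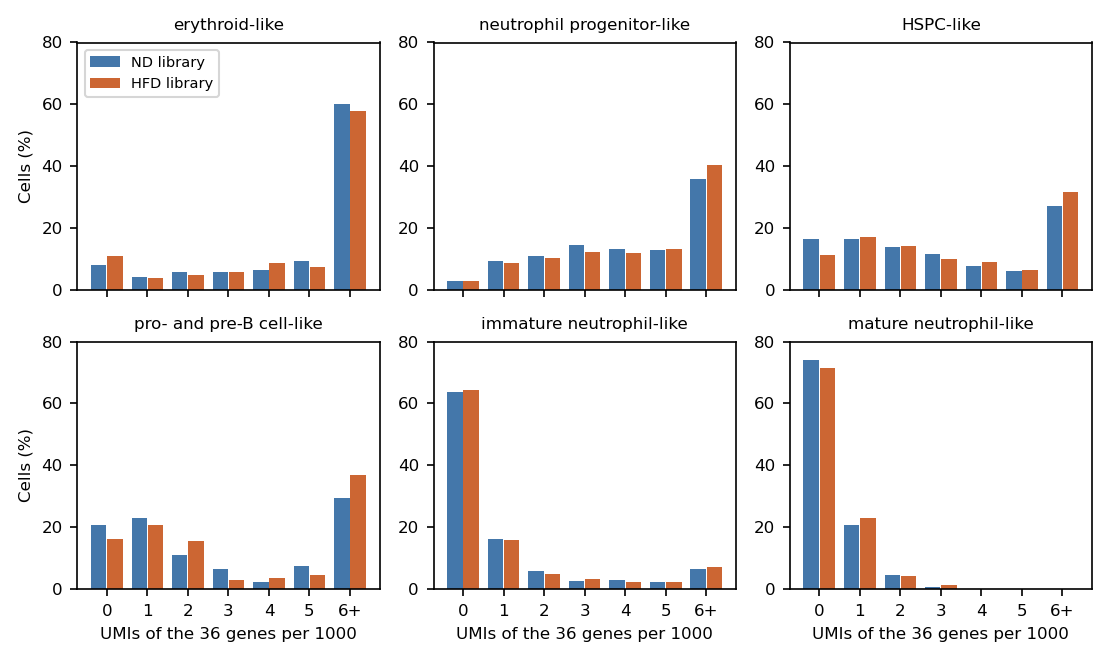
Share of cells, in percent, by their number of UMIs of the 36 genes (0 to 5, and 6 or more) after thinning each cell to 1000 UMIs, for 6 classes and both libraries. In HSPC-like cells 16.6% (ND) and 11.5% (HFD) hold none and 27.3% and 31.8% hold 6 or more, while in mature neutrophil-like cells 74.0% and 71.4% hold none.

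S phase RNA and the RNA of 30 G2 and M phase genes were set side by side in the same thinned cells. At least 3 UMIs of both lists were found in 77.3% and 75.9% of erythroid-like, 50.8% and 57.0% of neutrophil progenitor-like and 24.5% and 30.2% of HSPC-like cells. HSPC-like cells with S phase RNA but fewer than 3 G2 and M UMIs made up 28.5% and 27.1%. The G2 and M list does not mark mitosis by itself here, since 44.3% and 38.3% of mature neutrophil-like cells reached 3 of its UMIs without the S phase genes. The chromatin gene Hmgb2, looked up after these values were seen, held 86.3% and 84.5% of the list's UMIs in mature neutrophil-like cells, and 35.1% and 32.5% in HSPC-like cells.

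Between the diets, the S phase genes were lower over all cells but not in most classes. Over all cells the sum was 4202 CPM (ND) and 3930 CPM (HFD), a log2 ratio of -0.10 (-0.10 to -0.09), and 4 of 36 genes stood above 0, against 44.2% of all genes. The median of the 36 was -0.11, against -0.03 over all genes. Class by class the sum stood above 0 in 12 of 18 classes, with an interval above 0 in 8 and below 0 in 5. Erythroid-like cells, which held 38.3% of the S phase UMIs in the ND and 25.997% in the HFD library, were 7.87% and 5.17% of the cells. With the class mix of the ND library and the levels of the HFD library, the sum came to 4260 CPM (log2 0.02). With the class mix of the HFD library and the levels of the ND library it came to 3865 CPM (log2 -0.12).

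**Figure D5:**
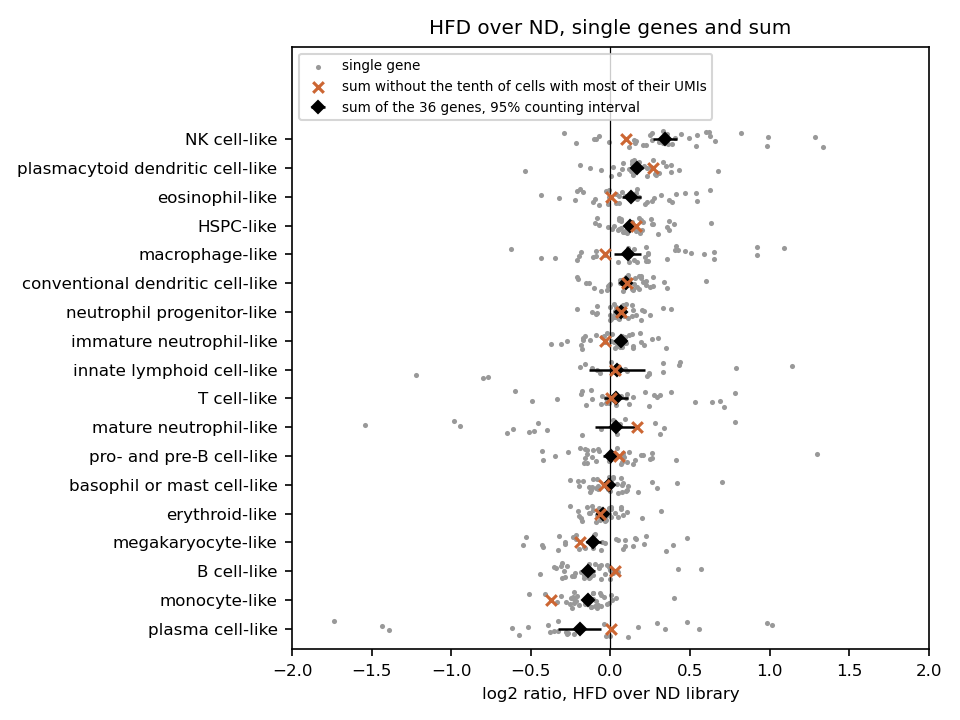
Log2 ratio of HFD over ND for single genes (grey points) and for the sum of the 36 (black diamonds with exact 95% intervals, counting error only) in each class, with crosses for the sum without the 10% of cells that hold the most of these UMIs in each library. The sum is at 0.13 in HSPC-like and -0.04 in erythroid-like cells, and in NK cell-like cells it is at 0.34 with and 0.10 without those cells.

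In HSPC-like cells the S phase genes stood slightly higher in the HFD library as a group, and 1 gene passed the size rule. The summed level was 4338 CPM (ND) and 4731 CPM (HFD), a log2 ratio of 0.13 (0.11 to 0.14). The median of the 36 genes was 0.12 (0.07 to 0.19, an interval over genes that takes them as independent), against 0.00 over all genes. Of the 36 genes, 32 stood above 0, against 50% of all genes. Rnaseh2a was called higher, 1 of 36, against 1.21% of all genes called higher in the class, and none was called lower, against 1.92%. It had 460 and 676 UMIs, or 36.8 and 56.9 CPM, a log2 ratio of 0.63 (0.46 to 0.80). The ratios come from 1281 and 1179 cells. With all cells kept Rnaseh2a stood at 0.57, and with cells thinned to 1000 UMIs at 0.58, both under the 1.5-fold rule, and the S phase sum ranged from 0.08 (at Leiden resolution 0.5) to 0.20 (thinned).

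By role, all 8 licensing genes stood above 0 in HSPC-like cells. Their sum was at 0.11, with the loader gene Cdc6 highest at 46.4 and 57.1 CPM (0.30), Mcm5 at 249 and 279 CPM (0.16, 0.09 to 0.23) and Mcm7 lowest at 181 and 188 CPM (0.05). All 4 helicase activation genes stood above 0, led by Mcm10, which helps start the unwinding, at 36.4 and 47.1 CPM (0.37, 0.19 to 0.55). Pole, the polymerase of the leading strand, stood at 27.6 and 35.3 CPM (0.35, 0.14 to 0.56), and Pold1 at -0.01. Pcna stood at 345 and 381 CPM (0.14, 0.08 to 0.20), Rfc2 at 0.02 and Rpa2, which coats single-stranded DNA, at -0.07.

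The sum of the 5 strand processing genes was at 0.25 in HSPC-like cells, that of helicase activation at 0.20 and that of nucleotide supply at 0.18. The flap nuclease gene Fen1 stood at 88.2 and 106 CPM (0.26), the ligase gene Lig1 at 247 and 298 CPM (0.27, 0.20 to 0.34) and the exonuclease gene Exo1 at 37.7 and 49.8 CPM (0.40, 0.22 to 0.58), while Ung was at -0.09. Rrm2 stood at 79.5 and 103 CPM (0.37, 0.25 to 0.49) and Rrm1 at 155 and 179 CPM (0.20). Tyms, which makes thymidylate, was at 0.13 and Dut at 0.07. The fork gene Clspn was at 0.19, Tipin at 0.05 and Dtl, an adaptor for the destruction of Cdt1, at 0.06. Of the chromatin assembly factor, Chaf1a was at 0.26 and Chaf1b at -0.08, and Uhrf1 stood at 181 and 206 CPM (0.18). The 4 genes below 0 were thus Pold1, Rpa2, Ung and Chaf1b, each with an interval that held 0.

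Markers of other classes also differed between the libraries in HSPC-like cells. Summed monocyte markers stood at 234 and 295 CPM in HSPC-like cells (log2 0.34), macrophage markers at 114 and 84.4 CPM (-0.45), erythroid markers at 1437 and 1339 CPM (-0.10) and neutrophil progenitor markers at 3984 and 4057 CPM (0.03). The class's own markers stood at 4864 and 4548 CPM (-0.10). Within the cluster led by Muc13 and Slc22a3 the S phase sum was at 0.18, with 35 of 36 genes above 0. There neutrophil progenitor markers stood at 3261 and 3726 CPM (0.19, 0.16 to 0.23) and macrophage markers at 122 and 67.1 CPM (-0.86). Within the other HSPC-like cluster, with Hlf, Dntt, Cd34, Flt3 and Meis1 among its leading genes, the S phase sum was at 0.10. There 29 of 36 genes stood above 0, and neutrophil progenitor markers stood at 4331 and 4234 CPM (-0.03). The part of these markers in the S phase ratios was not tested. At matched depth the share of HSPC-like cells with at least 3 S phase UMIs was 53.05% (50.3 to 55.8) and 57.3% (54.4 to 60.2). The ratio was 1.08 (0.97 to 1.203). Its interval treats both cell counts as Poisson, which is too wide for shares this large, so it does not settle whether the ratio differs from 1.

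Neutrophil progenitor-like cells showed a smaller shift and no gene past the size rule. The sum was at 4739 and 4964 CPM (0.07, 0.05 to 0.08), the median at 0.05 (0.03 to 0.10), and 28 of 36 genes stood above 0, against 49.4% of all genes. None of the 36 was called, against 1.12% of all genes called higher and 1.84% called lower. Rrm2 stood at 180 and 227 CPM (0.33, 0.27 to 0.39), on 4036 and 5758 UMIs. Rnaseh2a stood at 38.1 and 49.6 CPM (0.38), Gins1, of the GINS complex, at 24.9 and 29.6 CPM (0.25), Fen1 at 123 and 142 CPM (0.21) and Lig1 at 241 and 277 CPM (0.20). Ung went the other way, at 93.5 and 80.8 CPM (-0.21, -0.30 to -0.12). The polymerase and primase sum was at -0.06, with Prim1, the primase that lays the RNA primer, at -0.09 and Pola1, the polymerase that extends it, at 0.00. Here erythroid markers stood at 180 and 217 CPM (0.27), and their part was not tested. The sum stood at 0.04 with the list genes kept among the clustering genes and with thinned cells. A cluster led by Cd34 and Serpinf1 held 57.5% (ND) and 58.1% (HFD) of the class. Its leading genes held 4 neutrophil progenitor and 3 monocyte markers. At Leiden resolution 0.5 a cluster led by Cd34, F13a1 and Serpinf1 (622 and 701 cells) was named monocyte-like. The S phase sum was at 0.05 in the Cd34 and Serpinf1 cluster and at 0.09 in the Elane and Prtn3 cluster.

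Erythroid-like cells, with the deepest libraries per cell, stood close to no difference. The sum was at -0.04 (-0.05 to -0.03), and 11 of 36 genes stood above 0, against 52.0% of all genes. None was called, against 3.05% of all genes called higher and 1.19% called lower. All 8 licensing genes stood below 0, from Cdt1 at 217 and 192 CPM (-0.18) to Mcm4 at 328 and 321 CPM (-0.03). Slbp was the lowest, at 178 and 149 CPM (-0.25, -0.33 to -0.18), and Rnaseh2a the highest, at 55.5 and 69.1 CPM (0.32), followed by Cdc45, the helicase cofactor, at 27.7 and 31.8 CPM (0.20). Immature neutrophil markers stood at 120 and 220 CPM (0.87) and monocyte markers at 36.9 and 70.5 CPM (0.93) in this class, and their part was not tested. The sum was at 0.03 in the cluster led by Car1 and Ermap, and at -0.65 in the globin cluster, where the median of all genes was -0.36.

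The pro- and pre-B class was small, with 92 (ND) and 136 (HFD) cells, and its sum was at 0.01 (-0.05 to 0.06). It moved to 0.21 with thinned cells. Here 19 of 36 genes stood above 0, against 51.0% of all genes. Rnaseh2a was called higher, on 13 and 52 UMIs, or 18.6 and 45.6 CPM (1.30, 0.40 to 2.30), against 2.62% of all genes called higher. With thinned cells too few UMIs were left for a call. Rrm1, at 322 and 268 CPM (-0.27, -0.52 to -0.01), was the only other gene of the 36 whose interval left out 0.

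Across classes Rnaseh2a was the gene of the 36 with the most uniform direction. It stood above 0 in 16 of the 17 classes with enough UMIs, with an interval above 0 in 8, and it was called higher in 5. Besides HSPC-like and pro- and pre-B cell-like cells these were NK cell-like cells (24 and 34 UMIs, 14.9 and 36.4 CPM, log2 1.29), basophil or mast cell-like cells (107 and 168 UMIs, 12.5 and 20.4 CPM, 0.70) and conventional dendritic cell-like cells (97 and 150 UMIs, 19.2 and 29.2 CPM, 0.60). The shares of all genes called higher in these 3 classes were 4.34%, 1.61% and 2.33%. No such count over classes is given for all genes, and all classes come from the same libraries, so the classes are not independent repeats. With thinned cells Rnaseh2a was at 0.30 in NK cell-like cells. Plasma cell-like cells were the exception, on 18 and 12 UMIs (-0.52, -1.70 to 0.62). Over all cells Rnaseh2a stood at 31.5 and 38.5 CPM (0.29, 0.23 to 0.36). The 3 progenitor classes with the most UMIs gave 0.63 in HSPC-like, 0.38 in neutrophil progenitor-like and 0.32 in erythroid-like cells.

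Rnaseh2a shares its locus with other annotated genes, which bears on how its UMIs can be read. It overlaps Prdx2, a peroxiredoxin gene, on the opposite strand, and the gene model Gm49661 on its own strand. Neither covers its 3′ end, where the nearest coding gene was Rtbdn, 7 bases away on the opposite strand. The level of Rtbdn was not compared. Prdx2 stood at 303 and 292 CPM in HSPC-like cells (-0.06) and at 1259 and 1132 CPM in erythroid-like cells (-0.15), and in neutrophil progenitor-like cells its ratio was -0.05. In conventional dendritic cell-like cells Prdx2 was at 0.18. Since the use of strand is not stated, reads of the overlapping parts cannot be told apart.

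In monocyte-like and B cell-like cells the S phase genes stood lower in the HFD library as a group. Monocyte-like cells were at -0.14 (-0.17 to -0.12), with 4 of 36 genes above 0 against 50.6% of all genes. Within the Ccr2 and Fn1 cluster the sum was at -0.01 with 18 of 36 above 0, and within the Ace and Nr4a1 cluster, which held 478 (ND) and 1076 (HFD) cells, it was at 0.17. In that second cluster Mcm5 (33 and 151 UMIs, log2 0.98), Pold1 (26 and 104 UMIs, 0.79) and Fen1 (31 and 114 UMIs, 0.67) were called higher, 3 of 26, against 2.99% of all genes. Without the 10% of cells with the most S phase UMIs in each library the monocyte-like sum was at -0.37, and with both monocyte clusters weighted alike it was at 0.02. B cell-like cells were at -0.14 (-0.18 to -0.10) with 6 of 36 above 0, against 50.2% of all genes. Of the 2 B cell clusters that held most of the class, 1 had Vpreb3, Akap12, Rag1 and Pax5 among its leading genes. Its first 10 genes held 4 B cell and 3 pro- and pre-B markers, and it made up 55.2% (ND) and 54.4% (HFD) of the class. Its sum was at 3673 and 3315 CPM (-0.15, -0.20 to -0.10), with 8 of 36 genes above 0. The other, with Ms4a1, Fcmr and Ighd among its leading genes, had it at 1581 and 1546 CPM (-0.03, -0.12 to 0.05), with 17 of 32. The B cell-like sum was at 0.01 with the list genes kept among the clustering genes and at 0.03 without the 10% of cells with the most S phase UMIs, which held 75.8% and 72.1% of them.

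Plasmacytoid dendritic cell-like cells were at 0.17 (0.13 to 0.21), with 32 of 36 genes above 0 against 51.5% of all genes. Gins2, of the GINS complex, was called higher there on 51 and 72 UMIs (0.67), 1 of 36, against 1.98% of all genes. Without the 10% of cells with the most S phase UMIs the sum was at 0.27. Erythroid markers in this class stood at 1332 and 784 CPM (-0.76), immature neutrophil markers at 85.5 and 142 CPM (0.73) and macrophage markers at 108 and 69.8 CPM (-0.63), and their part was not tested.

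NK cell-like cells had the highest sum, 0.34 (0.27 to 0.42), with 7 of 35 genes called higher against 4.34% of all genes. They were Cdc6 (1.34), Rnaseh2a, Mcm2 (0.98), Clspn (0.82), Pold1 (0.66), Tyms (0.63) and Uhrf1 (0.62). The 10% of cells with the most S phase UMIs held 69.1% of them in the ND library (420 cells) and 76.3% in the HFD library (228 cells). Without those cells the NK cell-like sum was at 0.10 (-0.05 to 0.25). Macrophage markers in this class stood at 162 and 482 CPM (1.57) and basophil markers at 1069 and 292 CPM (-1.87), and their part was not tested.

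Immature neutrophil-like cells were at 0.07 as a class, but in the Ltf and Ly6g cluster the sum stood at -0.54 (-0.68 to -0.41). There 7 of 24 genes were called lower, against 3.28% of all genes: Cdc6 (16 and 6 UMIs, -1.78), Cdt1 (-1.10), Pcna (97 and 83 UMIs, -0.59), Fen1, Lig1, Rrm1 (39 and 15 UMIs, -1.74) and Dut (-1.37). Erythroid markers stood at 329 and 267 CPM in that cluster (-0.30, -0.43 to -0.16), and their part was not tested. The class sum was at -0.04 without the 10% of cells with the most S phase UMIs. Mature neutrophil-like cells were at 0.03, at -0.21 (-0.38 to -0.03) without Rfc2, and at 0.17 (-0.003 to 0.34) without the 10% of cells with the most S phase UMIs.

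Macrophage-like cells were at 0.11, with Mcm7 (0.65), Fen1 (0.59) and Dtl (1.09) called higher, 3 of 34, against 3.53% of all genes. In the macrophage cluster 23 the sum was at 0.55 (0.41 to 0.69) and 6 of 25 genes were called higher, against 4.06% of all genes. There erythroid markers stood at 1247 and 1918 CPM (0.62), immature neutrophil markers at 141 and 1037 CPM (2.88) and HSPC markers at 78.9 and 196 CPM (1.31, 0.94 to 1.70). Their part was not tested. Cluster 19, with 67.2% (ND) and 63.0% (HFD) of the macrophage-like cells, had its sum at 838 and 760 CPM (-0.14, -0.28 to -0.003), and there Uhrf1 was called lower (24 and 8 UMIs, -1.30), 1 of 25, against 2.75% of all genes. In cluster 22, the third of the class, the sum was at -0.03. Without the 10% of macrophage-like cells with the most S phase UMIs the class sum was at -0.04 (-0.17 to 0.09), and with the stricter cell filter it was at -0.17.

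The other calls were single genes on few UMIs. In all, 24 of 598 pairs of a gene and a class passed the size rule, 19 higher and 5 lower, over 17 of the 36 genes. Of all such pairs of any gene with these 18 classes, 2.63% were called higher and 2.46% lower. Prim1 (40 and 67 UMIs, 0.69) and Clspn (23 and 41 UMIs, 0.78) were higher in T cell-like cells, 2 of 32, against 3.41% of all genes. Chaf1a was higher in eosinophil-like cells (82 and 135 UMIs, 0.62), 1 of 35, against 3.1%. Mcm4 was lower in innate lymphoid cell-like cells (48 and 14 UMIs, -1.22), 1 of 20, against 2.2%, but stood at 0.37 with the list genes kept among the clustering genes. Lig1 was lower in mature neutrophil-like cells (23 and 13 UMIs, -1.54), 1 of 20, against 4.17%. In plasma cell-like cells Rrm2 was higher (41 and 79 UMIs, 1.02), 1 of 26, against 2.68%, and Rfc4, Tyms and Uhrf1 were lower (-1.39, -1.43 and -1.74), 3 of 26, against 6.2%. With cells thinned to 1000 UMIs these 3 genes stood at 0.06, 0.06 and 0.65. Immature neutrophil markers in plasma cell-like cells stood at 2654 and 187 CPM (-3.83) and erythroid markers at 315 and 117 CPM (-1.42), and their part was not tested. The plasma cell-like sum was at -0.19 (-0.33 to -0.06), and at 0.00 (-0.21 to 0.21) without the 10% of cells with the most S phase UMIs.

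Genes next to the list in the cell cycle were counted in the same way. In HSPC-like cells all 30 G2 and M phase genes stood above 0, with a median of 0.19, and the 4 largest ratios were Plk1 (0.55), Cdk1 (0.35), Ccnb1 (0.28) and Birc5 (0.27), mitotic kinases, a cyclin and a mitotic survival factor. Of 53 other replication genes 40 stood above 0 (median 0.08), with Cdc7, the kinase that fires origins, at 0.44, Pola2 at 0.40, Pold2 at 0.35 and Pold4 at -0.33. Of 27 E2F, cyclin and CDK inhibitor genes 17 stood above 0 (median 0.09), with E2f2 at 0.42, the G1 cyclin Ccnd1 at -0.41, and the S phase cyclins Ccne1 at 0.38 and Ccne2 at 0.24. In neutrophil progenitor-like cells the medians were 0.07 for G2 and M (25 of 30 above 0) and 0.04 for other replication genes (34 of 53). In erythroid-like cells they were 0.00 (15 of 30) and -0.04 (16 of 53).

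The surface protein CD117, the receptor product of Kit that marks blood-forming progenitors, was read in the same cells by an antibody tag. HSPC-like cells with 0, with 1 to 2 and with 3 or more S phase UMIs at matched depth had median CD117 tag counts of 45, 47.5 and 51 in the ND library and 30, 33 and 38 in the HFD library. Their median RNA depth rose along the same order, at 6587, 7135 and 10697 UMIs (ND) and 6286, 7136 and 10921 UMIs (HFD), and the part of depth in the tag counts was not tested. The tag against CD16 and CD32 was also lower in the HFD library in these HSPC-like groups. Its medians were 7, 8 and 11 (ND) and 3, 4 and 5 (HFD), and the cause was not tested. In neutrophil progenitor-like cells the ND medians of CD117 were 39.5, 34 and 26, the opposite order, and the HFD medians were 17, 24 and 18, with no order. The groups with 0 S phase UMIs held 32 (ND) and 33 (HFD) cells there.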

How the data were processed

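The authors deposited, per library, a table of counts of RNA molecules per cell and gene after RSEC error correction. Per the file headers it came from version 1.9.1 of the BD WTA Rhapsody Analysis Pipeline. Its genome build, annotation and use of strand were not given in the sources used here. The 36 genes, the other lists and the markers were chosen with earlier results of these data known. Cells under 200 genes or over 25% mitochondrial UMIs were removed (2515 ND and 1632 HFD cells), and Scrublet doublets, called per library at an expected rate of 5%, were left out (412 and 436). Clustering used scanpy 1.11.5 (Python 3.11.15, igraph 0.11.9) on the joined libraries, with counts scaled to 10000 per cell and logged, 2000 variable genes, none from the lists, 30 components, 15 neighbours and Leiden resolution 1.0, and found 33 clusters. Names came from the markers among a cluster's 50 leading genes by fold: the class with the most of them won, if it had at least 3 and no other class had more among the first 10. Bub1b, of the G2 and M list, is also a pro- and pre-B marker. Classes with at least 50 cells in each library were compared.

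Of the other lists, up to 4 genes per class with the largest ratios among those with at least 100 UMIs could be named, in 4 classes. Genes at 0 UMIs entered ratios at a floor of 3. Intervals of levels, shares and ratios are exact (Poisson, Clopper-Pearson or conditional binomial, 95%, scipy 1.17.1) and cover counting error only. Those of medians come from the rank order of the genes of a list. They take genes of the same libraries as independent, and measure neither counting error nor the spread between animals. The ratios were tested on simulated Poisson counts, with no spread between cells or animals. In simulated HSPC-like sums of 12165 genes, 95.5% of genes changed 2-fold and 0.685% of unchanged genes passed the size rule. In pro- and pre-B cell-like sums of 7905 genes these shares were 74.6% and 2.49%. They describe counting error under the model of the interval, and are not rates of false calls in the real libraries. Alternatives changed the cell filter, doublet removal, resolution, clustering genes, scaling, cluster weights and the size rule. Leaving out Rfc2, or the 10 cells or 10% of cells with the most S phase UMIs per library, was chosen after seeing the data. The promoter table had no entry for Mcm4, Gins1, Gins2, Pole, Rfc2, Exo1 and Tipin. Figures were drawn with matplotlib 3.10.9. Results of 1 erythroid-like cluster are not reported here.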

Additional observations from a re-analysis of the deposited data

Results flagged for a closer look

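Both genes below were called in opposite directions in NK cell-like and plasma cell-like cells. With 1 library per diet, the difference between the classes was not tested. Tyms, the thymidylate synthase gene, stood at a log2 ratio of 0.63 in NK cell-like cells, on 49 and 44 UMIs, and at -1.43 in plasma cell-like cells, on 17 and 6 UMIs. Uhrf1 stood at 0.62 in NK cell-like cells, on 101 and 90 UMIs, and at -1.74 in plasma cell-like cells, on 42 and 12 UMIs. With cells thinned to 1000 UMIs, Tyms stood at 2.69 and Uhrf1 at 0.051 in NK cell-like cells, and at 0.063 and 0.65 in plasma cell-like cells. The S phase sum of NK cell-like cells was at 0.34, and at 0.098 without the 10% of cells with the most S phase UMIs in each library. Macrophage markers in NK cell-like cells stood at 162 and 482 CPM (1.57), and immature neutrophil markers in plasma cell-like cells at 2654 and 187 CPM (-3.83). Their part in these ratios was not tested.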

How the results depend on the processing

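The S phase sum stayed above 0 in all settings tried in 6 classes (HSPC-like, neutrophil progenitor-like, eosinophil-like, NK cell-like and both dendritic cell-like classes) and below 0 in 1 (erythroid-like). It came close to no difference in some of them. The lowest sum was 0.0019 (-0.087 to 0.091) in eosinophil-like, 0.012 (-0.094 to 0.12) in NK cell-like and 0.0027 in conventional dendritic cell-like cells. The lowest eosinophil-like median was -0.047. In HSPC-like cells the sum was 0.082 and 0.096 at Leiden resolutions 0.5 and 2.0, 0.17 as a mean over cells, 0.16 without the 10% of cells with the most S phase UMIs and 0.20 with cells thinned to 1000 UMIs, with a median of 0.21 there. Its count past the size rule was 0 with all cells kept, 2 with thinned cells and 5 at a lower fold limit. In neutrophil progenitor-like cells the sum was 0.081 at resolution 2.0, 0.044 with list genes kept for clustering (median 0.026) and 0.045 with thinned cells, and the count was 2 at the lower fold limit. In erythroid-like cells the sum was -0.056 with all cells kept, -0.065 without those 10% of cells and -0.082 with thinned cells, where the count was 1. In pro- and pre-B cell-like cells the sum and median were 0.096 and 0.099 as a mean over cells, 0.21 and 0.30 with thinned cells, where the count was 0, and 0.15 and 0.17 without the 10 cells with the most S phase UMIs per library, an unequal share of 92 and 136 cells. Without the 10% the median was 0.092.

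Some values turned sign. With list genes kept for clustering, B cell-like cells gave 0.0081 (median 0.019) and Mcm4 in innate lymphoid cell-like cells 0.37. Macrophage-like cells gave -0.012 with doublets kept, -0.17 with the stricter filter (median -0.18), -0.048 as a mean over cells, -0.023 without the 10 cells (median -0.011) and -0.036 without the 10% (median -0.033). Without the 10%, B cell-like cells gave 0.029, immature neutrophil-like cells -0.036 and plasma cell-like cells 0.0039. Megakaryocyte-like cells gave 0.090 at resolution 0.5, where the class held 525 and 484 cells against 136 and 108 and had 5 HSPC markers among its leading genes, and monocyte-like cells 0.022 with clusters weighted alike (median 0.028). With thinned cells, Rfc4 and Tyms gave 0.063 and Uhrf1 0.65 in plasma cell-like cells. Where no values above name it, the cause was not tested. No paired analysis was possible because each diet had 1 library. Depth limits the classes with few S phase UMIs most, such as plasma cell-like cells (1001 and 835).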
